A study of Mus musculus with 6 samples.

Results

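The Id proteins Id2 and Id3 and the E proteins Tcf3, Tcf4 and Tcf12 were followed in regulatory T cells (Treg) of mice. Members were the probe sets whose platform annotation gives one of these symbols as its sole symbol, which gave 15 of 22626 non-control probe sets and 5 of 12393 genes. There were 3 probe sets for Id2, 1 for Id3, 3 for Tcf3, 6 for Tcf4 and 2 for Tcf12. In the p300-deleted group the cells came from fl-p300/Foxp3cre mice, in which floxed p300 (the histone acetyltransferase gene Ep300) is deleted by a Cre driven from Foxp3. The control group was Foxp3cre without the floxed p300 allele by its genotype label, although its titles read WT. Both groups had the C57Bl/6 background and were separated with magnets as CD4+CD25+ cells, with 3 arrays each. The labels give no ages. The labels describe the samples as independent without saying that each came from its own mouse, so the spread between them may be partly technical.

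E proteins are basic helix-loop-helix transcription factors that bind E-box DNA as dimers and recruit coactivators, among them p300 and its paralogue CBP. Id proteins have the helix-loop-helix but no DNA-binding region, so a dimer of an Id and an E protein cannot bind DNA. In mouse T cells Id2 and Id3 hold E protein activity in check, and mice whose Treg lack both develop inflammation with more follicular regulatory T cells. Tcf3 encodes E12 and E47, Tcf12 encodes HEB and Tcf4 encodes E2-2, which is needed for plasmacytoid dendritic cells.

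No member passed the test, which was limma's moderated fit at an adjusted p under 0.05. By their brightest probe sets the inhibitors Id2 and Id3 stood at 0.674 and 0.672 times the control level in p300-deleted cells, and Tcf3 at 0.827 times. Tcf12 stood at 1.12 times and Tcf4 at 0.951 times the control level. All 3 p300-deleted arrays lay on one side of all 3 controls for 4 of the 5 genes, which held for 23.7% of the 8675 genes tested. At the threshold used, 1.72% of genes tested were called, 0.991% as higher and 0.726% as lower, and 18.1% had an unadjusted p under 0.05.

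Because Id2 and Id3 had the largest differences and the same sign, the 250 bases upstream of their start sites are shown in the direction of transcription. They come from RefSeq on GRCm38.p6, at chr12:25096093-25096342 on the minus strand for Id2 and at chr4:136143572-136143821 on the plus strand for Id3. Capitals mark the E-box CANNTG, the letters that E proteins bind, searched on both strands.
Id2: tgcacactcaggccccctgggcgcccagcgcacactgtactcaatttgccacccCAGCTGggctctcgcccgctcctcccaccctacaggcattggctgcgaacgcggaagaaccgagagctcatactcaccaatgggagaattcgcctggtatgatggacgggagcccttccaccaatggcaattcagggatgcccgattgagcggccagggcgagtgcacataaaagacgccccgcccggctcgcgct
Id3: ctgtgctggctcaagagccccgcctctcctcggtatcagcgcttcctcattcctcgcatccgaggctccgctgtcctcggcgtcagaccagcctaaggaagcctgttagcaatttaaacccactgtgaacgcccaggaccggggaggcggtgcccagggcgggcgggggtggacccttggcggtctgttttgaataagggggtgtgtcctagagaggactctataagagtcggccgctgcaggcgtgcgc
The Id2 stretch held 1 E-box, of the form CAGCTG, and the Id3 stretch held 0. An E-box was present in 66.2% of 32851 promoter stretches of this length, and CAGCTG in 13.0%. The Id2 stretch also held 3 copies of CCAAT, which overlap no E-box, against 0 in Id3, and 2.79% of promoter stretches had 3 or more. Its single GGCGCC, letters bound by the Smads of BMP signalling in Id1 of the mouse, was shared by 9.59% of stretches and was not found in Id3. These are matches of letters only, and no binding was measured.

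Id2, the inhibitor that is high in effector T cells and innate lymphoid cells, read 10.83, 10.57 and 10.13 in p300-deleted arrays 1, 2 and 3, against 11.14, 11.25 and 10.85 in controls (log2 values of its brightest probe set). The groups did not overlap, but only 0.02 separated the highest p300-deleted array from the lowest control. The means were 10.51 ± 0.35 in p300-deleted cells and 11.08 ± 0.21 in controls (SD, n = 3 each). The difference was -0.57 (SE 0.19, limma adjusted p = 0.167), a ratio of 0.674 with a 95% interval of 0.502 to 0.904.

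The probe sets of Id2 did not all have the same sign. The second, 1422537_a_at, read 10.64, 10.23 and 9.92 in p300-deleted arrays, against 10.81, 10.91 and 10.40 in controls, so that p300-deleted 1 lay above control 3. It differed by -0.44 (SE 0.20, adjusted p = 0.364 in the fit of all probe sets), and over the 6 arrays its Pearson correlation with the brightest was 0.974. The third, 1453596_at, read 5.71, 5.92 and 5.98 in p300-deleted arrays, against 5.71, 5.58 and 5.97 in controls, with a difference of 0.11 (SE 0.13, adjusted p = 0.770) and correlations of -0.794 and -0.898 with the other 2. With the mean of all 3 probe sets Id2 was at -0.30 (limma adjusted p = 0.246).

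Id3, the inhibitor linked to naive and memory T cells and induced by T cell receptor signals, has a single probe set. It read 8.34, 8.70 and 8.58 in p300-deleted arrays, against 9.02, 9.41 and 8.90 in controls. Every p300-deleted array was below every control, with a gap of 0.21. The means were 8.54 ± 0.18 in p300-deleted cells and 9.11 ± 0.26 in controls (SD, n = 3 each), a difference of -0.57 (SE 0.16, 95% interval -0.93 to -0.22, limma adjusted p = 0.111). Its unadjusted p of 0.00571 stood at place 445 of 8675, which was the smallest among the 5 genes.

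**Figure D1:**
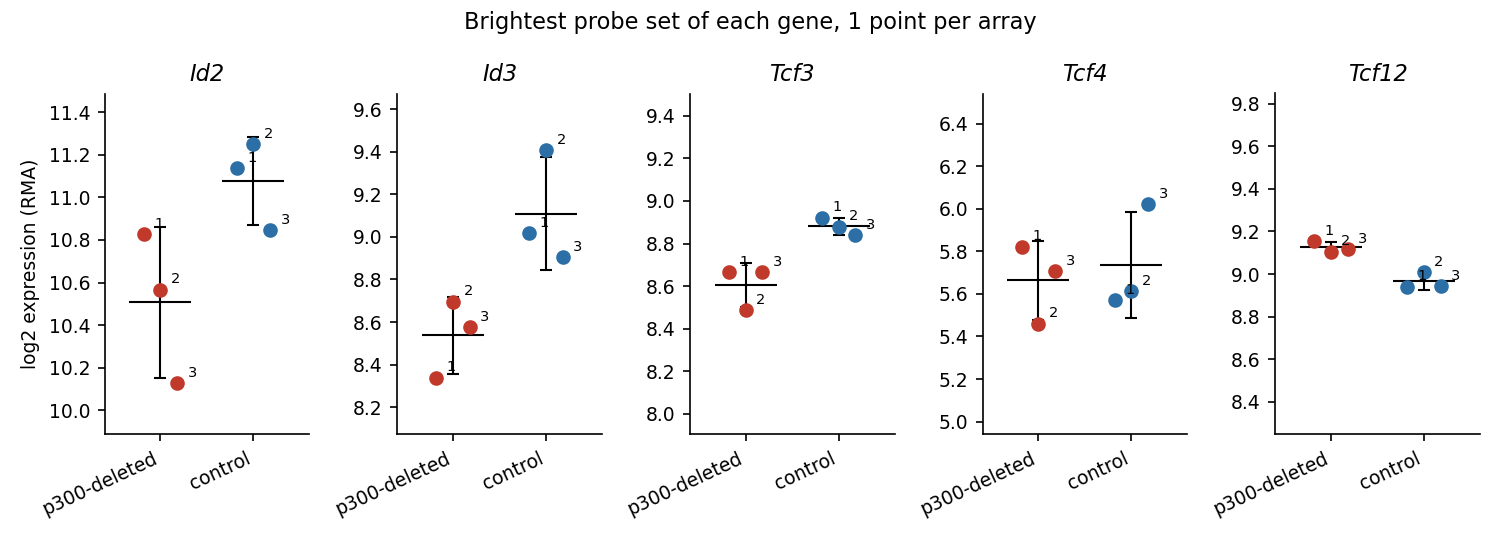
Log2 expression of the brightest probe set of each gene (vertical axis, RMA values, each panel spanning the same range) in the p300-deleted and control arrays. Points are arrays with their replicate numbers, and black lines are the mean and SD of 3. The groups do not overlap for Id2, Id3, Tcf3 and Tcf12, with the widest gap, 0.21, for Id3.

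Tcf3 had the steadiest readings among the members that were lower. Its brightest probe set, 1426297_at, read 8.67, 8.49 and 8.67 in p300-deleted arrays, against 8.92, 8.88 and 8.84 in controls. The groups were 0.17 apart. The means were 8.61 ± 0.10 in p300-deleted cells and 8.88 ± 0.04 in controls (SD, n = 3 each), and the difference was -0.27 (SE 0.10, 95% interval -0.51 to -0.04, limma adjusted p = 0.215). The second probe set of Tcf3 read 7.52, 7.28 and 7.43 in p300-deleted arrays, against 7.65, 7.56 and 7.65 in controls, again without overlap, and differed by -0.21 (SE 0.11, adjusted p = 0.420 over all probe sets). The third, 1452542_x_at, was at -0.15 (adjusted p = 0.665) with overlapping groups. All 3 had the same sign.

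Tcf12, whose product HEB pairs with E2A in T cells, had the opposite sign. Its brightest probe set read 9.15, 9.10 and 9.12 in p300-deleted arrays, against 8.94, 9.01 and 8.94 in controls. The readings within a group were tight, and the groups were 0.09 apart. The difference of 0.16 (SE 0.09, 95% interval -0.06 to 0.38) had a limma adjusted p of 0.420. The other probe set, 1421908_a_at, read 7.25, 6.93 and 7.39 in p300-deleted arrays, against 7.04, 6.68 and 7.16 in controls, with a difference of 0.23 (adjusted p = 0.592) and overlap between groups.

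The probe sets of Tcf4 disagreed in sign. The brightest, 1416724_x_at, read 5.82, 5.46 and 5.71 in p300-deleted arrays, against 5.57, 5.61 and 6.02 in controls, and the groups overlapped. Its difference was -0.07 (SE 0.15, 95% interval -0.42 to 0.28, limma adjusted p = 0.849). Probe sets 1416723_at, 1434148_at and 1424089_a_at were at 0.20, 0.24 and 0.04, with adjusted p of 0.633, 0.392 and 0.961 in the limma fit of all probe sets.

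Of the 15 member probe sets, 1434149_at of Tcf4 had the smallest unadjusted p, 0.00555, and read 3.80, 3.52 and 3.66 in p300-deleted arrays against 3.06, 3.06 and 3.40 in controls. Its difference was 0.49 (SE 0.13, adjusted p = 0.153 in limma). This probe set exceeded the brightest bacterial control probe set of its own array in 1 of 6 arrays, and those bacterial controls, which match no mouse transcript, peaked between 3.64 and 3.99. The last Tcf4 probe set, 1416725_at, did so in 0 of 6 arrays and was at -0.13. All other member probe sets did so in 6 of 6. Probe sets ending in _a_at or _x_at can bind several transcripts, and the annotation does not say which splice forms each one reads.

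**Figure D2:**
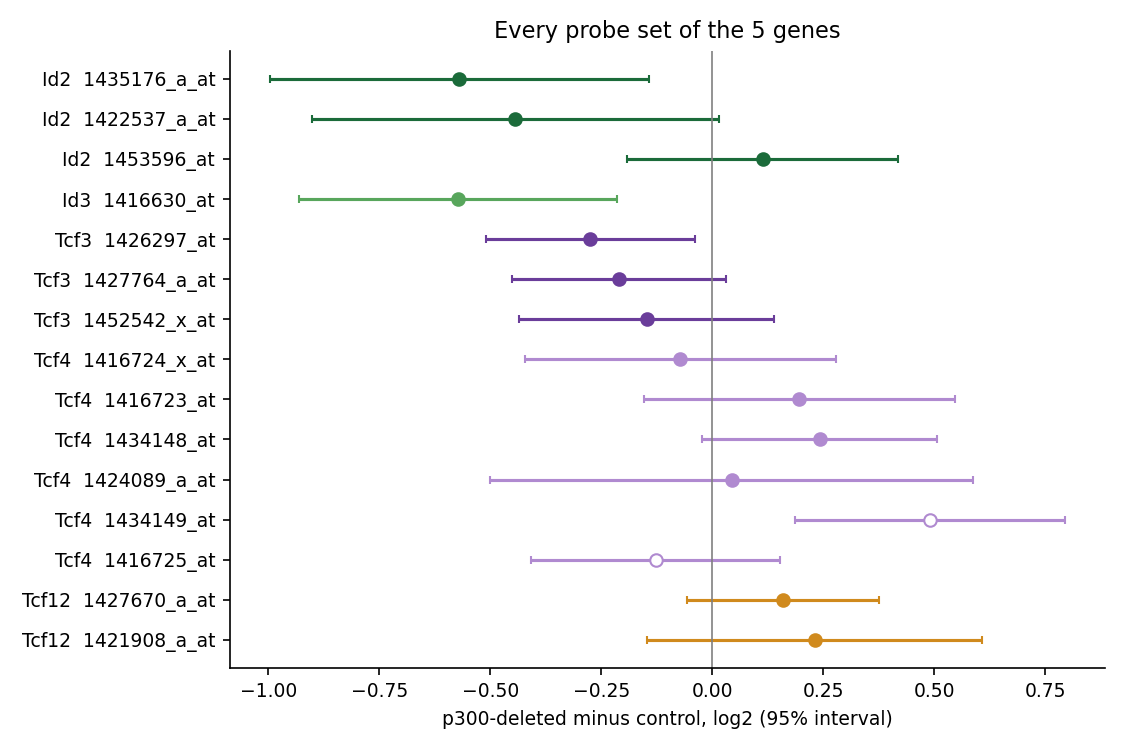
Difference between p300-deleted and control arrays in log2 units (horizontal axis) for each of the 15 member probe sets, brightest first within each gene. Bars are 95% intervals of the limma fit over 22626 probe sets, and open points did not exceed the bacterial controls in all 6 arrays. Intervals of the brightest probe sets of Id2, Id3 and Tcf3 lie below 0, and the single interval above 0 is the dim 1434149_at of Tcf4.

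Across all probe sets, groups did not overlap for 6 of 15 member probe sets, against 19.5% of 22626, and 0 members were called, against 0.455%. In limma 4 member probe sets had an unadjusted p under 0.05, those at -0.57 for Id2, -0.57 for Id3, -0.27 for Tcf3 and 0.49 for Tcf4, against 14.4% of all probe sets.

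**Figure D3:**
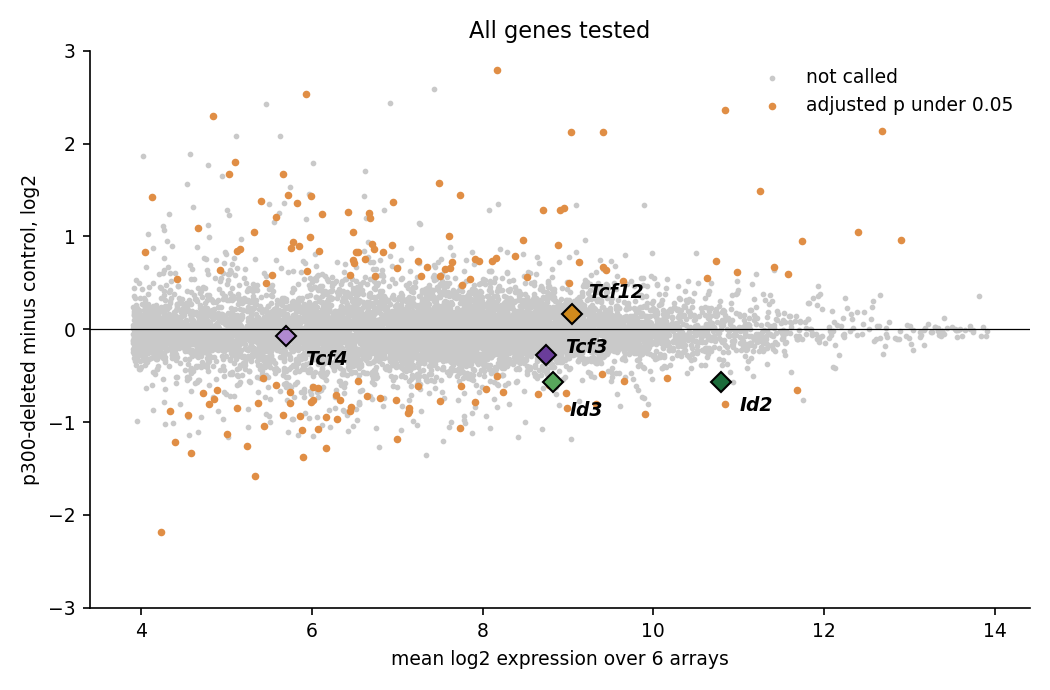
Difference between p300-deleted and control arrays (vertical axis, log2) against the mean over 6 arrays (horizontal axis, log2) for 8675 genes. Diamonds mark the 5 members, orange points the genes called, and Foxp3, not above background in p300-deleted arrays, lies outside the axis. None of the 5 members was called.

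Id1 and Id4, the other Id genes, were also read. Id1 read 4.29, 4.27 and 4.16 in p300-deleted arrays, against 4.50, 4.71 and 4.51 in controls, without overlap, at a difference of -0.33 (SE 0.11, adjusted p = 0.165 in limma). All 3 Id4 probe sets lay below the brightest bacterial control in every array. By their brightest probe sets the 3 Id genes above background, Id1, Id2 and Id3, had negative differences, and none was called. Id1 was close to background, as the brightest bacterial controls peaked between 3.64 and 3.99. Of 8675 genes tested, 4770 had negative differences. The 5 members and the lists of related genes were chosen with earlier results of these data known, and lists are described by counts beside the median of all genes tested, -0.03.

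The cell type label was checked against its defining markers. Of 12 CD4 T cell and Treg markers 10 were tested. By limma 1 passed, Foxp3, and the list's median was 0.20. Of 10 differences 8 were positive, against 3905 of 8675 over all genes tested. Foxp3, the lineage factor of Treg, read 2.57, 3.04 and 3.15 in p300-deleted arrays, against 9.63, 9.35 and 9.39 in controls. The readings of the 3 p300-deleted arrays lay below the brightest bacterial control of each array, so the defining marker of the labelled cells was not above background there. Set against those bacterial controls, the Foxp3 reading was at least 50.7-fold lower in p300-deleted arrays (limma adjusted p = 4.36e-07). That reading comes from a single probe set, and whether the sequence it reads is intact in these mice was not tested. Among the other 9 markers Tnfrsf18 alone had a negative difference, -0.16. Groups did not overlap for 5 of them, all higher in p300-deleted arrays, and none of these passed the test. Of all genes tested, 10.5% were higher without overlap. Il2ra, which encodes the CD25 used to separate the cells, was at 9.14 ± 0.05 in p300-deleted cells and 8.89 ± 0.24 in controls (SD, n = 3 each, limma adjusted p = 0.378). Ctla4, an inhibitory receptor of Treg, was at 10.93 ± 0.03 in p300-deleted cells and 10.62 ± 0.25 in controls (SD, n = 3 each, limma adjusted p = 0.287). Ikzf2, the Treg factor Helios, had overlapping groups, with means of 5.26 ± 0.23 in p300-deleted cells and 4.66 ± 0.89 in controls (SD, n = 3 each). Cd4 was at 9.89 ± 0.17 in p300-deleted cells and 9.21 ± 0.27 in controls (SD, n = 3 each). The labels do not give the structure of the Foxp3 allele, and the annotation names 0 probe sets for Ep300. Crebbp, which encodes CBP, was at 0.04 (limma adjusted p = 0.892).

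Markers of other cells that depend on members were read beside them. NK and innate lymphoid cells need Id2, and of 16 tested markers 2 rose, Klrb1b and Gzma (Klrb1b called under 6 of 14 alternatives), with a list median of 0.16. Neither was called when p300-deleted 1, 2 or 3 or control 1 was left out. Among all 16 markers, 2 were called as higher without p300-deleted 3 or without control 3, and 1 without control 2. Without p300-deleted 1 there was 1 called as lower and 0 as higher, and 0 were called without p300-deleted 2 or control 1. Their summed linear signal was 5150, 4125 and 3444 in p300-deleted arrays, against 3903, 4109 and 3473 in controls. In the p300-deleted group array 1 was highest and array 3 lowest for these markers and for Id2 alike. Plasma cell markers had the same order, with sums of 13364, 11462 and 10942. Mast cell and myeloid marker sums were lowest in array 2. A link between these markers and Id2 was not tested. Conventional dendritic cells, which also express Id2, had 0 of 11 tested markers called, a median of -0.10 and sums of 4120, 2841 and 3383 in p300-deleted arrays against 3247, 2879 and 4689 in controls.

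Plasmacytoid dendritic cells need Tcf4, and of 11 tested markers 1 fell, with a median of 0.06 and sums of 1943 to 2280 in p300-deleted arrays, against 1788 to 2278 in controls. B cells, which need Tcf3, had 1 of 8 tested markers lower, a median of -0.27 and sums of 814 to 1333 in p300-deleted arrays, against 1146 to 1275 in controls. The lineage factors Pax5 and Ebf1 were below the dim limit of 3.91. The marker that fell in both lists was Spib, a transcription factor of both cell types, at 6.06, 5.45 and 5.56 in p300-deleted arrays, against 6.67, 6.63 and 6.61 in controls (-0.95, SE 0.16, limma adjusted p = 0.0368), and it passed under 10 of 16 alternatives.

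Marker lists of plasma cells, mast cells and myeloid cells had higher summed linear signals in every p300-deleted array than in every control. Plasma cell markers had 5 of 10 tested genes called as higher, with sums of 10942 to 13364 in p300-deleted arrays, against 5495 to 6719 in controls. That count was 0 without control 1, 1 without p300-deleted 3, 2 without p300-deleted 1 or p300-deleted 2, and 4 without control 2 or control 3. Bright genes weigh most in summed linear signals. Among plasma cell markers the brightest was Jchain, with means of 12.92 in p300-deleted arrays and 11.87 in controls. Mast cell and basophil markers had 6 of 11 called as higher, with sums of 629 to 1037 in p300-deleted arrays, against 355 to 471 in controls. That count was 0 without control 1, 1 without p300-deleted 3, 2 without p300-deleted 1, 3 without control 2, and 4 without p300-deleted 2 or control 3. Myeloid markers had 0 of 21 called in limma, and 13 were at an unadjusted p under 0.05, against 18.1% of all genes tested. Their sums were 5432, 1808 and 2098 in p300-deleted arrays, against 1329, 1098 and 1675 in controls. The part of these cells in the levels of Id and E protein genes was not tested. In such mixed samples fewer cells of a type and less RNA per cell cannot be told apart.

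Of 38 genes that E proteins are known to bind or regulate in T cells, 30 were tested. Foxp3, by its single probe set, was the 1 called as lower, 0 were called as higher, and the list's median was 0.06. Cd4, which E proteins help to activate in thymocytes, was the next by p, at 0.68 (SE 0.16, limma adjusted p = 0.0746). The interleukin 7 receptor gene Il7r, looked at after its values were seen, read 10.69, 10.51 and 10.78 in p300-deleted arrays, against 11.44, 10.91 and 11.03 in controls, at -0.46 (limma adjusted p = 0.172). Rag1, Rag2 and Ptcra, targets of E proteins in the thymus, were below the dim limit. Of 17 tested E protein targets in B cells 1 fell, which was Spib, and the median was -0.08. The next was Lef1, a factor of lymphoid progenitors and naive T cells, at 0.78 (SE 0.25, limma adjusted p = 0.156).

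Follicular genes were read because mice without Id2 and Id3 in Treg gain follicular regulatory T cells. The list had 22 tested genes, of which 2 rose and 0 fell. Its median was 0.09, and 6 had groups without overlap, all higher, against 10.5% of all genes tested. Il21, the cytokine of follicular helper cells, read 5.63, 5.99 and 5.91 in p300-deleted arrays, against 4.58, 5.20 and 4.62 in controls, and rose by 1.04 (SE 0.18, limma adjusted p = 0.0393, called under 9 of 15 alternatives). Il10, an inhibitory cytokine, read 7.45, 7.41 and 7.33 in p300-deleted arrays, against 6.41, 6.27 and 6.78 in controls, and rose by 0.91 (SE 0.14, limma adjusted p = 0.0283, called under 10 of 16 alternatives). Neither cytokine is restricted to follicular cells. The genes that define those cells, looked at after their values were seen, did not pass. The follicle-homing receptor Cxcr5 was at -0.11 (limma adjusted p = 0.793), the lineage factor Bcl6 at 0.13 (adjusted p = 0.669) and the checkpoint receptor Pdcd1 at 0.03 (adjusted p = 0.930).

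Effector genes that accompany Id2 in T cells included 18 that were tested, of which 1 rose and 0 fell, with a median of -0.09. By limma 8 of the 18 had an unadjusted p under 0.05, against 18.1% of all genes tested. Of the 18 differences 12 were negative, against 4770 of 8675 over all genes tested. Gzma, a granule protease, rose by 0.73 (SE 0.14, limma adjusted p = 0.0445) and was called under 9 of 16 alternatives. Gzmk, a related protease, read 5.48, 5.95 and 5.81 in p300-deleted arrays, against 5.17, 5.17 and 5.08 in controls, at 0.60 (adjusted p = 0.0681 in limma). Klrg1, a receptor of terminal effector cells looked at after its values were seen, read 8.20, 8.03 and 7.30 in p300-deleted arrays, against 8.74, 8.66 and 9.60 in controls, at -1.16 (limma adjusted p = 0.0913). Of 19 tested naive and memory genes that accompany Id3, 0 passed limma's test, with a median of 0.02. In limma 7 of the 19 had an unadjusted p under 0.05, against 18.1% of all genes tested. Cd27, a costimulatory receptor, was at 0.55 (limma adjusted p = 0.0741) and the chromatin organiser Satb1 at -0.42 (adjusted p = 0.153).

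Among related factors, 16 other Id and helix-loop-helix genes were tested, Hes and Hey genes included. Of these 1 rose and 0 fell, with a median of -0.01. Bhlha15 encodes Mist1, an E protein partner of secretory cells such as plasma cells. It read 5.36, 5.02 and 5.34 in p300-deleted arrays, against 4.59, 4.58 and 4.64 in controls, and rose by 0.63 (SE 0.12, limma adjusted p = 0.0459, called under 6 of 15 alternatives). Averaged over its probe sets, Bhlha15 was at 0.30, and the plasma cell markers given above were higher in the same arrays. Hey1, a repressor induced by Notch, was at 0.37 (adjusted p = 0.0948 in limma). Of 23 tested cofactors of E proteins 0 passed limma's test, with a median of -0.00038. In limma 5 of the 23 had an unadjusted p under 0.05, against 18.1% of all genes tested. The corepressor Sin3a was at 0.40 (adjusted p = 0.142) and Ssbp4, of the Ldb1-binding family, at -0.28 (adjusted p = 0.201).

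Upstream of the members, 29 genes tied to Id gene induction were tested, from BMP, TGF-beta, T cell receptor and STAT5 signals and other factors. The list mixes inducers with repressors and feedback inhibitors, so its median gives no direction for induction. By limma 0 of the 29 passed, with a median of 0.02, and 4 had an unadjusted p under 0.05, against 18.1% of all genes tested. The TGF-beta co-receptor Eng was at -0.27 (adjusted p = 0.221) and the repressor Gfi1 at 0.42 (adjusted p = 0.229). Of 14 tested genes for kinases, ubiquitin enzymes and other factors, such as Notch1, that act on Id and E proteins 0 passed limma's test. Their median was -0.11. In limma 5 of the 14 had an unadjusted p under 0.05, against 18.1% of all genes tested. Groups did not overlap for 5 of the 14, all lower, against 13.2% of all genes tested that were lower without overlap. Cdk2, a cell cycle kinase that phosphorylates Id2, was at -0.46 (adjusted p = 0.0829), and Cdc20, an activator of the anaphase-promoting complex, at -0.93 (adjusted p = 0.0909).

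Likeness to each member was measured as Pearson's correlation over the 6 arrays, which share the group difference, and is given as a description. Baiap2 was most like Id2 (0.993), followed by Dbil5 and Rnpep, and 17 genes exceeded 0.95. Wdr4 (0.998), Mtfp1 and Wrap73 were most like Id3, with 64 genes above 0.95. Bcat1 (0.998), a branched-chain aminotransferase, Cited2, whose product binds p300 and CBP, and Ctc1 were most like Tcf3. Bcat1 fell by 0.85 (SE 0.16, limma adjusted p = 0.0466, called under 6 of 15 alternatives). Cited2 was at -0.23 (adjusted p = 0.274). Echs1 (0.997), Ifitm2 and Eaf2 were most like Tcf12, and Eaf2, an elongation-associated factor, rose by 1.24 (SE 0.22, limma adjusted p = 0.0413, called under 9 of 16 alternatives). Ltc4s (0.990), B4galt6 and Dnase1l3 were most like Tcf4. Among the members themselves, correlations of Id2, Id3 and Tcf3 with each other were 0.679 to 0.701, and those of Tcf12 with the same 3 were -0.813 to -0.607.

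The Gapdh control, a sign of RNA quality, did not overlap between groups, while the 18S ribosomal RNA and actin controls did. The Gapdh control transcript is read near both ends, and its 3' reading exceeded its 5' reading by 0.09, 0.14 and 0.06 in p300-deleted arrays, against 0.23, 0.59 and 0.21 in controls. The same reading for actin was 0.36, 0.43 and 0.29 in p300-deleted arrays, against 0.40, 0.46 and 0.30 in controls. With the Gapdh reading as a covariate Id2 was at -0.36 (limma adjusted p = 0.514), Id3 at -0.27 (adjusted p = 0.433) and Tcf3 at -0.29 (adjusted p = 0.328). Because that reading does not overlap between groups, it and the deletion cannot be told apart in these arrays. The 18S ribosomal RNA controls read 7.74, 9.47 and 7.91 in p300-deleted arrays, against 5.68, 6.03 and 8.69 in controls. With 18S as a covariate Id2 was at -0.44, Id3 at -0.52 and Tcf3 at -0.20.

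The members' calls depended on how arrays were weighted. With array weights, Id2 was at -0.60 (limma adjusted p = 0.0479) and Id3 at -0.49 (adjusted p = 0.0394), and both were then called. That fit called 11.7% of all genes tested, and it gave control 2 and control 3 weights of 0.37 and 0.41, against 1.20 to 2.41 for the other arrays. Tcf3 was at -0.32 (adjusted p = 0.0540) and was not called.

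**Figure D4:**
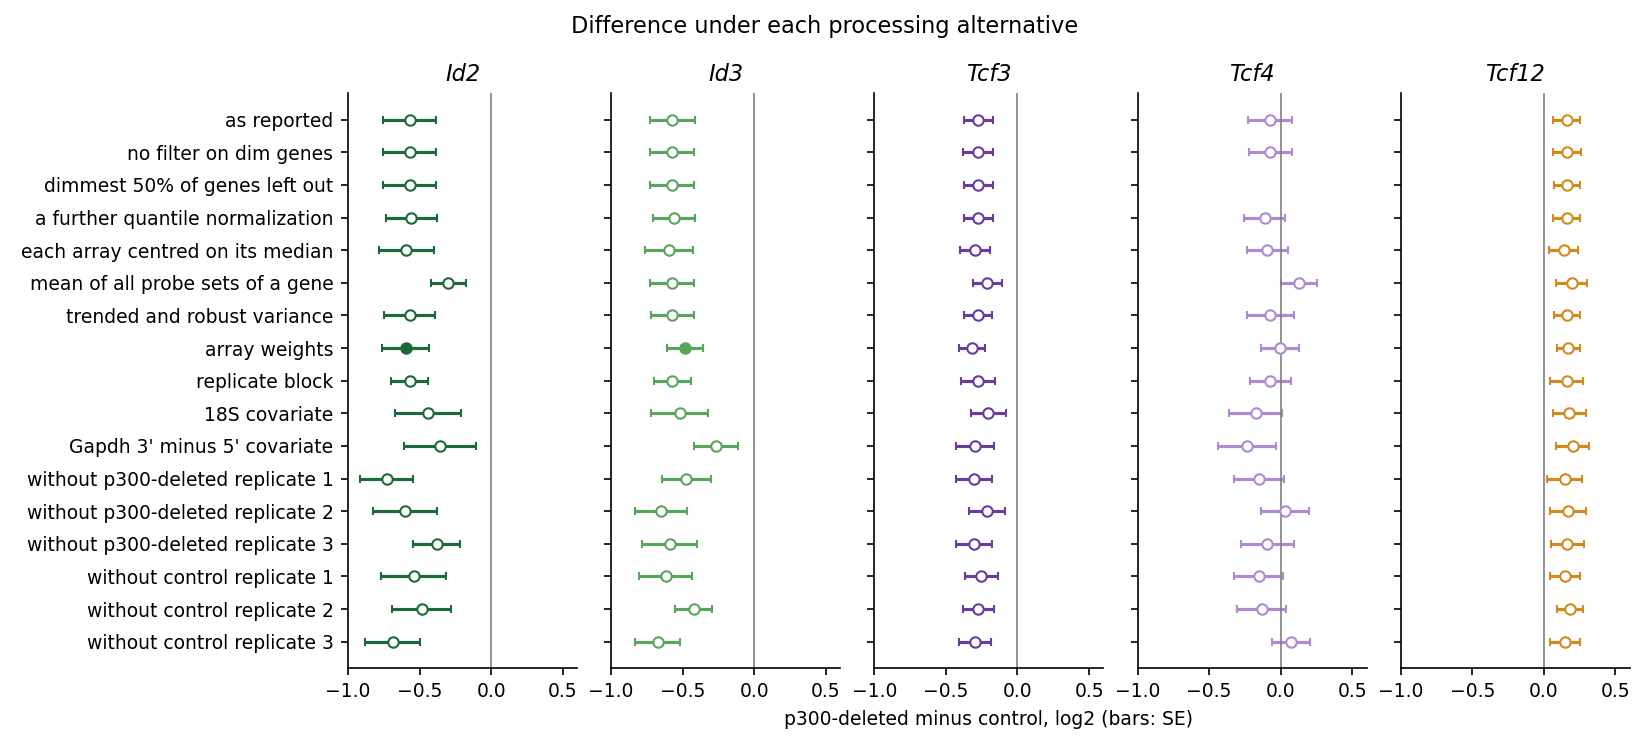
Difference between p300-deleted and control arrays in log2 units (horizontal axis) for each member, as reported and under each alternative (rows). Points are fitted differences with SE bars, and filled points were called. Id2, Id3 and Tcf3 stay below 0 and Tcf12 above 0 in every row, with filled points at array weights for Id2 and Id3. Tcf4 lies on both sides of 0. Rows for the dim filters, the variance model and the replicate block repeat the reported difference by design.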

How the data were processed

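Gene expression was measured on 6 arrays, 3 per group, and samples were grouped by their titles and genotype labels. The values the authors deposited are log2 expression per probe set from RMA (no version named), per the submitters' processing notes. RMA subtracts background and forces arrays to a common distribution, so global shifts in RNA content are invisible and small signals are flattened. The number of arrays limits the precision.

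Each gene was read by its brightest probe set (highest mean over 6 arrays), and the dimmest 30% of 12393 genes (means up to 3.91) were left out. The remaining 8675 were fitted in R 4.3.3 by limma 3.58.1 (lmFit, then eBayes), with Benjamini-Hochberg adjustment and two-sided p-values. All 22626 non-control probe sets were fitted in the same way for the single probe sets. The fit was tested on simulated data. Of 20380 probe sets with a single symbol, 20351 were matched by gene ID to RefSeq's GRCm38.p6 table, and no symbol changed. Promoter sequences come from RefSeq on GRCm38.p6.

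The members and lists were chosen with earlier results of these data known. Named genes were the members, Id1, Id4, Crebbp and Foxp3, up to 5 called genes a list (or, with fewer than 2 called, the smallest adjusted p up to 2), and the 3 tested genes most correlated with each member. Plasma, mast cell and myeloid markers are given as counts, apart from Jchain. Il7r, Klrg1, Cxcr5, Bcl6, Pdcd1, Rag1, Rag2, Ptcra, Pax5, Ebf1, Il2ra, Ctla4, Ikzf2 and Tnfrsf18 fall outside this rule and were named after their values were seen. Alternatives were other dim filters, normalizations, probe set means, variance models, weighting of arrays, a block for replicate number, 2 covariates, a looser threshold and leaving out each array.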

Additional observations from a re-analysis of the deposited data

How the results depend on the processing

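Differences of Id2, Id3, Tcf3 and Tcf12 kept their sign under all 17 alternatives run for each. They ran from -0.73 to -0.30 for Id2, -0.68 to -0.27 for Id3, -0.32 to -0.20 for Tcf3 and 0.14 to 0.20 for Tcf12. The dim filters, variance model, replicate block and looser threshold cannot change a difference, so there the sign was fixed in advance. The same held for the probe set mean of Id3, which has a single probe set. Leaving out each array in turn gave -0.73 to -0.38 for Id2, -0.68 to -0.42 for Id3 and -0.15 to 0.070 for Tcf4, and no member was called. Array weights alone brought calls, for Id2 (-0.60) and Id3 (-0.49). Tcf4 turned to 0.13 with the mean of its probe sets, and to 0.029 without p300-deleted replicate 2 and 0.070 without control replicate 3. It was not tested with the dimmest 50% of genes left out. The cause of these changes was not tested.

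Of all genes tested, 149 were called as reported, 95 with probe set means, 1019 with array weights, 98 with the replicate number as a block, 15 with the 18S covariate, 48 with the Gapdh covariate, 399 at an adjusted p under 0.10, and 9 to 230 when each array was left out. Same-numbered arrays deviated from their group means with correlations of -0.07, 0.12 and -0.12, against -0.19 to 0.23 for arrays of different numbers. With 3 arrays per group this cannot decide whether the numbers pair the samples. With the replicate number as a block Id2 was at -0.57 (limma adjusted p = 0.101) and Id3 at -0.57 (adjusted p = 0.0994), and the block changed no call of a member. Spib, Il10, Il21, Gzma, Bhlha15, Bcat1 and Eaf2, called as reported, were all not called without p300-deleted replicate 2, without p300-deleted replicate 3 or without control replicate 1. Without control replicate 1 their limma adjusted p ran from 0.1317 to 0.1577. All of these but Spib also lost the call without p300-deleted replicate 1, as did Spib, Gzma, Bhlha15 and Bcat1 without control replicate 2, and Eaf2 without control replicate 3. With the 18S covariate none of the 7 was called (limma adjusted p 0.114 to 0.170), and with the Gapdh covariate Spib, Il10, Gzma, Bhlha15 and Bcat1 were not called (0.0866 to 0.157). With the 18S and the Gapdh covariate 1 and 2 plasma cell markers, and 3 and 1 mast cell markers, were called as higher.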
